A study of Homo sapiens with 3 samples.

Results

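The aryl hydrocarbon receptor battery was followed in HepG2 cells through 7 listed genes: AHR, its partner ARNT, the repressor AHRR, the feedback enzyme TIPARP and the cytochrome P450 genes CYP1A1, CYP1A2 and CYP1B1. Members were chosen by name, as every probe set with exactly 1 gene symbol in the platform annotation, where that symbol is of a listed gene. That gave 6 genes with 1 probe set each, among 18417 genes measured in this way. AHRR was left out of the comparisons because its probe set is also annotated to PDCD6. HepG2 is an established human liver tumour line, used here as 1 line in culture. The study held 3 Affymetrix arrays: 1 of cells given graphene oxide (GO) for 24 h, 1 of cells given reduced graphene oxide (rGO) for 24 h, and 1 of untreated control cells. Each material was used at its own EC20, the dose tied to a 20% effect in viability assays, and no concentration is given in the labels. GO and rGO doses may therefore differ. All groups share the cell line and the medium, and the labels name no genetic change in any of them.

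The receptor AHR is a transcription factor of the bHLH-PAS family that waits in the cytosol in a complex with HSP90 chaperones. Ligands such as dioxins, polycyclic aromatic hydrocarbons and tryptophan derivatives send it to the nucleus, where it pairs with ARNT and binds DNA at sites with the core GCGTG. CYP1A1 is the classical induced target, CYP1A2 is a P450 typical of hepatocytes, and AHRR and TIPARP are targets that restrain the receptor.

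None of the 6 genes differed by 2-fold between any 2 arrays. The widest difference was in CYP1A1, which stood 1.44-fold lower in the rGO array than in the control array. Its neighbour CYP1A2 was 1.24-fold lower in the same comparison. After GO, the member farthest from control was TIPARP, 1.24-fold lower. AHR and ARNT varied by 0.13 and 0.16 on the log2 scale over the 3 arrays. Every group was 1 array, so no difference has a replicate error, no test was run, and variation between dishes cannot be told apart from an effect of the material.

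All values are the deposited log2 expression values of a probe set, and a difference is the log2 value of one array minus that of another. A value of one probe set gives no measure of how much more or less RNA a gene has than another gene, so folds are given between arrays only. A gene passed the level filter when its mean over the 3 arrays reached log2 6.66, the 40th percentile of all genes, which 11050 genes did. AHR, ARNT, TIPARP and CYP1A1 passed, whereas CYP1A2 and CYP1B1 lay below, where background takes a larger part of the signal. The arrays had near-equal distributions, with medians over 33297 probe sets from 6.63 to 6.66. As a rough check of the cell line against the common level filter, 9 of 9 measured hepatocyte line markers passed the filter, against 1 of 5 leukocyte markers (CD68) and 2 of 7 fibroblast and endothelial markers (COL1A1 and PDGFRB).

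The regions before the start sites of CYP1A1, CYP1A2 and TIPARP are shown because these genes gave the widest differences from control. Each is the 250 bases before the annotated start, from RefSeq on GRCh38.p14, printed 5′ to 3′ on the gene's strand. Capitals mark GCGTG, the core of the receptor's site, and TATAAA, both searched on either strand, so CACGC marks the core on the opposite strand. CYP1A1 lies on the minus strand at chr15:74725529-74725778, CYP1A2 on the plus strand at chr15:74748595-74748844, and the outermost of 3 TIPARP starts on the plus strand at chr3:156674340-156674589.
CYP1A1: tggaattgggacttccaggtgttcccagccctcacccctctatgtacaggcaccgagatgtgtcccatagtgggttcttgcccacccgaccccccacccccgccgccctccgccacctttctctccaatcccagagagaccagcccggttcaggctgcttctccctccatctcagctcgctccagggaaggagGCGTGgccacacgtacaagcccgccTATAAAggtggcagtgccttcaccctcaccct
CYP1A2: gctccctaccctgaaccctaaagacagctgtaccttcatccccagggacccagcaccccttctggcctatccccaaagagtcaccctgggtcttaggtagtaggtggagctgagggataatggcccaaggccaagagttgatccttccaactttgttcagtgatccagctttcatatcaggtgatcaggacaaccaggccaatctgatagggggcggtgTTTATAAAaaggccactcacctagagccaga
TIPARP: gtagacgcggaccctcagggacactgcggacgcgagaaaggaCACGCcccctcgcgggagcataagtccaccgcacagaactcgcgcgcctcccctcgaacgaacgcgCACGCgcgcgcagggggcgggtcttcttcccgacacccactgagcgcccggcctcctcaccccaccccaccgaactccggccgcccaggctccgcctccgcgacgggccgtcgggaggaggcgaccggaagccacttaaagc

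The CYP1A1 window held 1 GCGTG, beginning 57 bases before the start, and 1 TATAAA, beginning 32 bases before it. The CYP1A2 window held no GCGTG and 2 overlapping TATAAA matches, 1 on each strand. The TIPARP window held 2 cores on the opposite strand and no TATAAA, and the windows of its other 2 starts held neither. GCGTG was held by 32.2% of the 35116 such windows from RefSeq, and TATAAA by 10.7%. The longer form TNGCGTG, which overlaps the core and was found in 4.52% of windows, was in none of the 3 printed. The AHR and ARNT windows held no GCGTG, and each of the 2 AHRR windows held at least 1. Windows were matched for 6 of the 7 listed genes. A match is a run of letters and not a shown binding site.

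**Figure D1:**
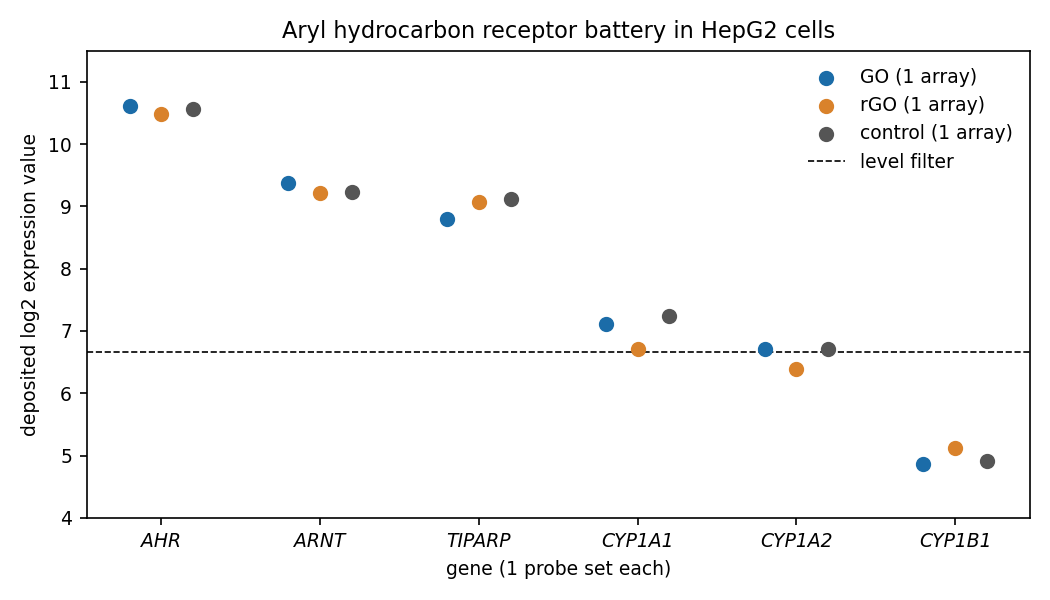
Deposited log2 expression value of each member's probe set (vertical axis) in the GO, rGO and control arrays, 1 point per array, with no error bars since each group is 1 array. The dashed line is the level filter at 6.66. The rGO point of CYP1A1, at 6.72, lies below its GO and control points, and the points of AHR nearly coincide.

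AHR, the receptor itself, had a log2 value of 10.61 in the GO array, 10.48 in the rGO array and 10.56 in the control array. GO was highest and rGO lowest, with differences from control of 0.05 for GO and -0.08 for rGO. ARNT, the nuclear partner that AHR shares with the hypoxia factors, had 9.37 in the GO array, 9.21 in the rGO array and 9.24 in the control array. It stood at 0.13 for GO minus control and at -0.03 for rGO minus control. GO was the high array for both partners of the dimer, by small amounts: ARNT was 1.12-fold and AHR 1.10-fold higher in GO than in rGO. In GO minus rGO 23.8% of genes past the filter stood higher than ARNT and 27.7% higher than AHR.

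TIPARP, an ADP-ribosyltransferase that is induced by AHR and modifies it, had 8.80 in the GO array, 9.07 in the rGO array and 9.11 in the control array. The GO array was the low one, with a difference of -0.31 from control, while rGO minus control was -0.04. Among the genes past the filter, 14.1% had a lower difference than TIPARP in the GO comparison, so a shift of this size was frequent in that pair of arrays.

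CYP1A1, which oxidises polycyclic aromatic hydrocarbons, had 7.11 in the GO array, 6.72 in the rGO array and 7.24 in the control array. The rGO array was the low one, and its value lay just above the filter level. The difference was -0.52 for rGO minus control and -0.13 for GO minus control, which is 1.44-fold and 1.10-fold lower. In the rGO comparison 20 of the 11050 genes past the filter (0.181%) stood lower than CYP1A1, and over all 18417 genes 79 did (0.429%). Of the 20, 18 were not listed as protein-coding in RefSeq. Among the 10552 protein-coding genes past the filter CYP1A1 ranked 3rd from the bottom, a rank that was not planned and leaves out those 18. CYP1A1 lay near the filter, and rGO differences spread more widely below the filter than above it, as given further on. In the GO comparison 28.9% of genes stood lower.

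CYP1A2, a P450 that metabolises caffeine and aromatic amines in liver, had 6.70 in the GO array, 6.39 in the rGO array and 6.71 in the control array. GO and control were nearly equal and rGO was again the low one, at -0.32 from control. Among all 18417 genes, whatever their level, 3.42% stood lower in the rGO comparison. CYP1B1, a P450 of mostly extrahepatic tissues, had 4.86 in the GO array, 5.12 in the rGO array and 4.92 in the control array. Here rGO was the high one, at 0.20 from control, opposite in sign to the CYP1A genes. All its values lay below the filter level, and 94.6% of all genes stood lower than CYP1B1 in that comparison. CYP1A1 and CYP1A2 are related genes, and whether their probe sets share targets was not tested.

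**Figure D2:**
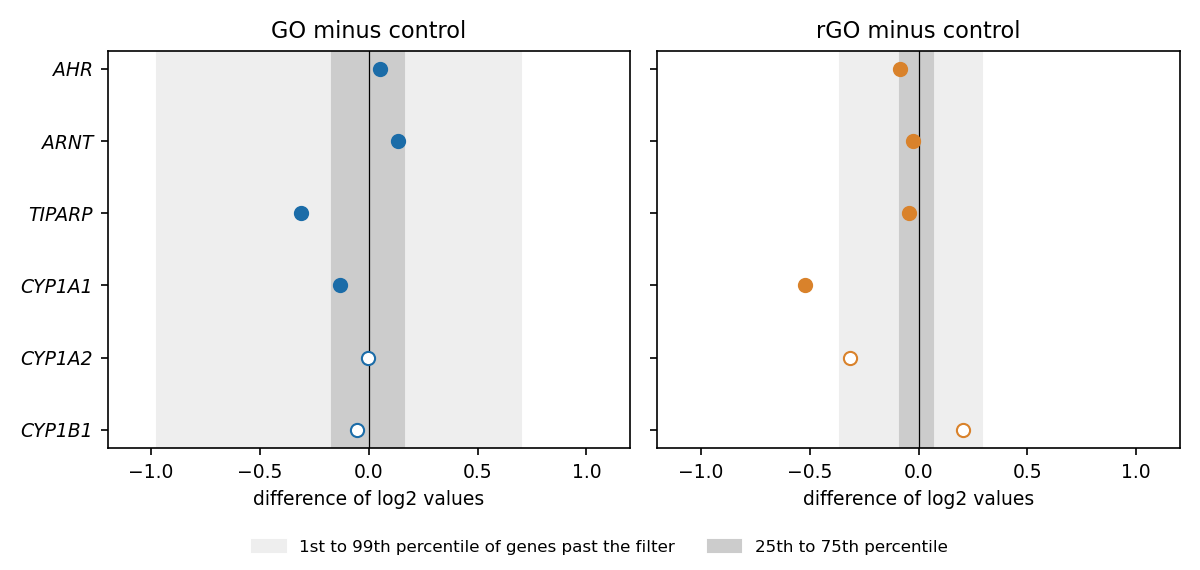
Difference of log2 values for each member in GO minus control and rGO minus control (horizontal axes), with open points for members below the level filter. Grey bands give the 25th to 75th and the 1st to 99th percentile of all genes past the filter, and of the 12 points CYP1A1 in the rGO panel, at -0.52, is the only one outside the wider band.

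Of the 4 members past the filter 0 were at least 2-fold higher or lower after GO, where 1.17% of all genes past the filter were. After rGO the count was also 0, against 0.0181% of all genes. For GO minus rGO it was 0, against 0.796%. At 1.5-fold the counts of members were again 0 in each comparison, beside 6.14% of genes after GO, 0.154% after rGO and 5.02% between GO and rGO. A count of 0 among 4 members is near these background shares.

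The 6 members had a median difference of -0.03 after GO with 4 below 0, beside a median of -0.0059 and 51.1% below 0 over all 18417 genes. After rGO their median was -0.06 with 5 below 0, beside -0.02 and 54.9% below 0 over all genes. The robust SD, a spread computed from the median absolute deviation, was 0.244 after GO and 0.116 after rGO over genes past the filter. Over genes below the filter it was 0.186 after GO and 0.165 after rGO. Both comparisons use the same control array, so a high or low control value moves both differences of a gene together.

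Set directly against each other, the arrays gave CYP1A1 a difference of 0.39 for GO minus rGO, 1.31-fold higher in GO, and CYP1A2 one of 0.31. CYP1B1 stood at -0.26 and TIPARP at -0.27, while AHR and ARNT stood at 0.13 and 0.16. This comparison does not use the control array. In it 5.67% of genes past the filter stood higher than CYP1A1, and 14.6% stood lower than TIPARP.

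CYP1A1 and CYP1A2 lie next to each other in RefSeq order, with 0 measured genes between them. The 5 measured genes on either side ran from -0.29 to 0.09 in rGO minus control, with a median of -0.05. The lowest of these 10 was LMAN1L at -0.29, which lay below the level filter, and the adjoining EDC3 and CSK stood at -0.14 and 0.09. CYP1A1 and CYP1A2 had the lowest rGO minus control differences of these 12 genes. After GO the 10 neighbours had a median of 0.19 and ran from -0.30 to 0.37.

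**Figure D3:**
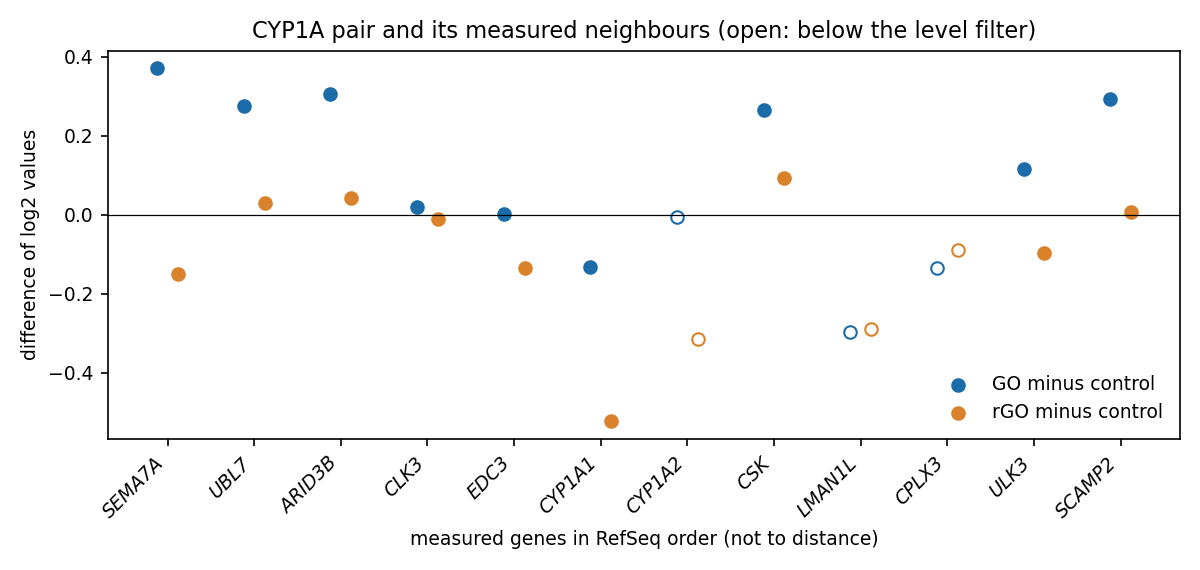
Difference of log2 values (vertical axis) for GO minus control and rGO minus control at CYP1A1, CYP1A2 and 5 measured genes to either side, ordered as in RefSeq and not to distance, with open points below the level filter. In rGO minus control CYP1A1 at -0.52 and CYP1A2 at -0.32 are the lowest 2 points, followed by LMAN1L at -0.29.

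Patterns most like those of the members were sought among genes past the filter, by the Euclidean distance between pairs of differences (GO minus control and rGO minus control, 3 arrays in all). Nearest to CYP1A1 were the small RNAs SCARNA16, SNORA13, SNORD116-25, SNORA52 and SNORA24, at distances of 0.046 to 0.080. Their rGO differences ran from -0.54 to -0.46. Nearest to AHR were GATA1, CPD, IFT122, FBXW4 and DERA, and nearest to TIPARP were GABPB1, PDE3B, ZFP30, ACOX2 and ROCK2, at distances of 0.0042 to 0.0075.

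Genes around the receptor were read from 7 lists of 77 genes, of which 70 were measured and 48 passed the filter. After GO 0 of the 48 stood 2-fold or more above control, beside 0.253% of all genes, and 2 stood 2-fold or more below it, beside 0.914%. After rGO the counts were 0 above, beside 0%, and 0 below, beside 0.0181%. Counts of genes above or below 0 and medians of the lists are given over all measured genes of a list, whatever their level. They are read beside 48.7% above and 51.1% below 0 over all genes after GO, and 44.9% above and 54.9% below 0 after rGO. The highest and lowest genes named are those past the filter.

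In the cytosolic complex that holds the receptor, 5 of 6 measured genes stood below 0 after GO, beside 51.1% of all genes, with a median of -0.09. Of these 5, STUB1 at -0.0060 and CUL4B at -0.0028 lay nearly at 0. HSP90AA1, the inducible HSP90 chaperone, had 11.94 in the GO array, 12.52 in the rGO array and 12.53 in the control array, a 1.51-fold lower value after GO. HSP90AB1, the constitutive form, stood at 0.13. After rGO 5 of 6 again stood below 0, beside 54.9% of all genes. The list had a median of -0.02 and ran from -0.07 (STUB1, a ubiquitin ligase of chaperone clients) to 0.07 (HSP90AB1). Nuclear cofactors, among them acetyltransferases and receptor coactivators, had a median of 0.23 after GO with 8 of 9 above 0, beside 48.7% of all genes. After rGO their median was 0.07 with 7 of 9 above 0, beside 44.9%. RELB, an NF-kappa-B subunit that can pair with AHR, stood highest at 0.41 after GO and 0.24 after rGO. NRIP1, a corepressor, stood lowest at -0.44 and -0.18.

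The bHLH-PAS relatives include the factors that share ARNT or resemble it, and 6 of 13 passed the filter. Over the 13 the median was 0.0053 after GO and 0.02 after rGO, with 7 above 0 in each. EPAS1, the hypoxia factor HIF-2 alpha, stood highest at 0.28 after GO and 0.08 after rGO, and BMAL2, an ARNT-like clock factor, lowest at -0.46 and -0.09. HIF1A, which competes for ARNT, stood at -0.03 and -0.06.

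Other known targets of the receptor had a median of -0.09 after GO over 12 measured genes, 8 of them below 0, beside 51.1% of all genes. After rGO the median was -0.05, again with 8 below 0, beside 54.9%. Of the 12, 7 passed the filter, GSTA2 with a GO value below its level and ALDH3A1 with GO and rGO values below it. The glutathione transferase GSTA1 had 7.43 in the GO array, 9.69 in the rGO array and 9.92 in the control array, 5.62-fold lower after GO. GSTA2 had 6.23 in the GO array, 7.41 in the rGO array and 7.67 in the control array, 2.71-fold lower after GO. The GO value was below the level of the filter, where signal merges with background, so this fold can be understated, and the gene passed the filter through its rGO and control values. These were the 2 listed genes past 2-fold, and as near-identical copies they can share signal. NQO1, a quinone reductase induced by both AHR and NRF2, stood at -0.37 after GO and 0.01 after rGO. NFE2L2, which encodes NRF2, stood at -0.89 and -0.14, and CYP2S1, another induced P450, was highest at 0.31 and 0.11. GSTA2 was lowest after rGO, at -0.26.

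Enzymes of the kynurenine pathway, a source of AHR ligands, include those that make kynurenine from tryptophan and those that use it. Of 9 measured genes 8 were below 0 after GO, beside 51.1% of all genes, with a median of -0.23, and 5 passed the filter. Of these 5, KYAT3, a kynurenine aminotransferase, was lowest at -0.80 and AFMID, the formamidase, highest at -0.18. After rGO the 9 had a median of -0.05, and the 5 ran from -0.15 (KYAT3) to 0.03 (AADAT). TDO2, a dioxygenase that begins the pathway in liver, lay below the filter, at 3.71 in the GO array, 3.99 in the rGO array and 4.04 in the control array.

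P450 electron partners and haem synthesis genes, which the CYP1 enzymes need, had a median over 11 measured genes of 0.05 after GO and 0.05 after rGO. Over the 10 past the filter the rGO median was -0.0012. POR, the reductase that passes electrons to P450s, stood at 0.14 and 0.09, and ALAS1, which starts haem synthesis in liver, at 0.30 and 0.09. CYB5R3, the cytochrome b5 reductase, was highest after GO at 0.59 and CYB5A, a cytochrome b5, lowest at -0.38. After rGO the list ran from -0.19 (UROS) to 0.10 (FECH), both enzymes of haem synthesis. Relatives of TIPARP in the ADP-ribosyltransferase family had a median of 0.12 after GO over 10 measured genes, 8 of them above 0, beside 48.7% of all genes. The 5 past the filter ran from PARP14 at -0.63 to PARP12 at 0.59. After rGO the median of the 10 was 0.01, with 5 above 0, and the 5 ran from PARP14 at -0.17 to PARP10 at 0.09.

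**Figure D4:**
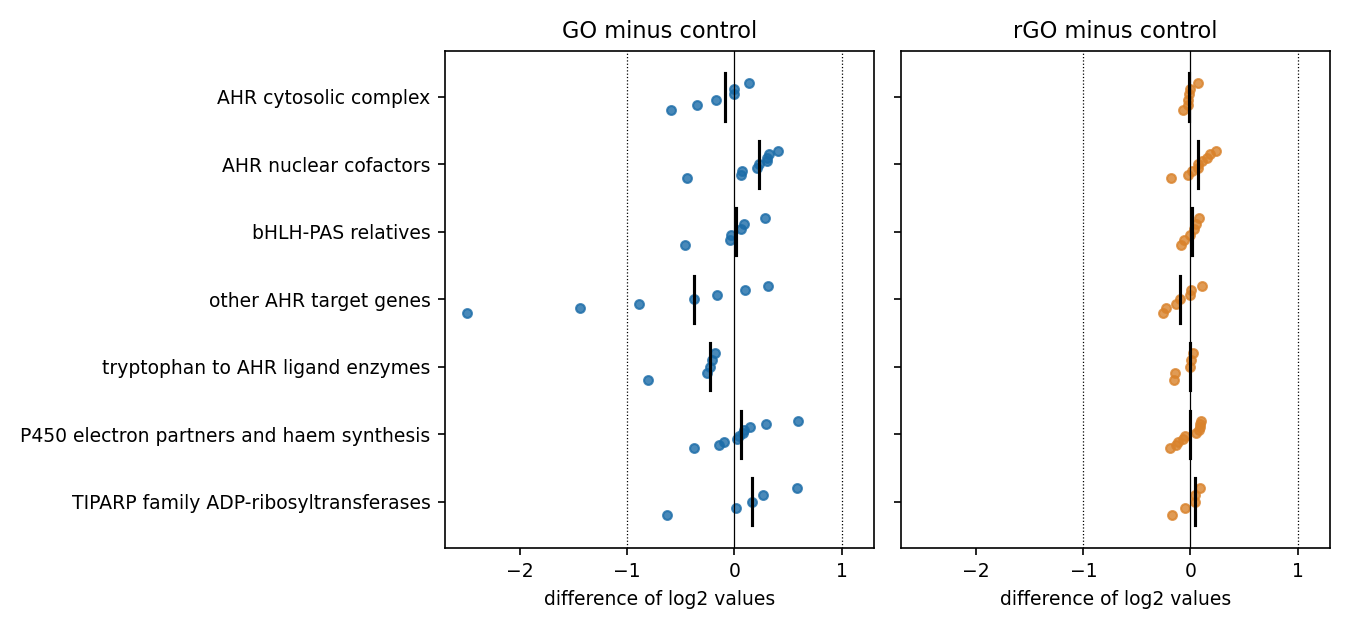
Difference of log2 values (horizontal axes) for the 48 genes of 7 lists that passed the level filter, in GO minus control and rGO minus control, 1 point per gene with the median of the plotted genes as a black bar and dotted lines at 2-fold. GSTA1 at -2.49 and GSTA2 at -1.44 in the GO panel are the points past 2-fold.

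Markers of other cell types were read beside the rGO difference of CYP1A1. Of 7 fibroblast and endothelial markers, 6 stood below 0 after GO, beside 51.1% of all genes, and 6 after rGO, beside 54.9%. Their mean log2 value was 5.86 in the GO array, 5.76 in the rGO array and 5.89 in the control array. PDGFRB, a growth factor receptor of mesenchymal cells, stood at 0.33 after GO and -0.40 after rGO, the highest and the lowest of the 7. It had 7.30 in the GO array, 6.57 in the rGO array and 6.97 in the control array. Its rGO value lay below the level of the filter, which it passed through its GO and control values. PECAM1, an endothelial marker below the filter, went the other way after rGO, at 0.24, and stood at -0.0085 after GO. Leukocyte markers averaged 5.98 in the GO array, 5.90 in the rGO array and 5.97 in the control array. Of the 5 measured, 2 stood below 0 after GO and 4 after rGO. The 9 hepatocyte line markers averaged 12.21 in the GO array, 12.05 in the rGO array and 11.97 in the control array. Above 0 stood 7 of 9 after GO, beside 48.7% of all genes, and 9 of 9 after rGO, beside 44.9%. All 3 arrays were of 1 cell line in culture. Only 1 of 5 leukocyte markers and 2 of 7 fibroblast and endothelial markers passed the level filter. The part of any of these in the CYP1A1 difference was not tested, and bulk RNA does not show which cells hold a transcript.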

How the data were processed

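Total RNA of 3 HepG2 cultures was amplified, biotin-labelled and hybridised to Affymetrix arrays, per the labels' protocols. The deposited values are log2 expression values per probe set. RMA and MAS5 are listed, with no role or version, per the submitters' processing notes. The deposited log2 values look normalized between arrays, from their near-equal distributions, and any further scaling is unknown. The authors' genome build is not given in the sources used here.

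Of 33297 probe sets 19460 carried 1 gene symbol in the platform annotation, which can be old, 1754 several and 12083 none listed, and 19429 were matched to RefSeq by Entrez ID. A gene was read from its probe set with the highest mean, giving 18417 genes, and the 40th percentile of the mean set the level filter. Comparisons were differences between single arrays, counted at 2-fold, with no significance test. The named genes were all members, the highest and lowest of each pathway list in GO and rGO minus control, and genes past 2-fold. The 5 nearest patterns to CYP1A1, AHR and TIPARP were also named, leaving out LOC and LINC genes. HIF1A, NQO1, NFE2L2, POR, ALAS1, TDO2, CUL4B, PDGFRB, PECAM1 and the neighbours EDC3, CSK and LMAN1L were added after their values were seen. The rank of CYP1A1 among protein-coding genes was not part of the planned comparisons. Medians and direction counts of lists were planned over genes past the filter, and those over all measured genes were chosen after the data had been seen. The members and lists were chosen with earlier results of these data known. Alternatives were quantile normalization, median centring, loess (span 0.3), averaged probe sets, no filter, a 60th percentile filter, and sizes of 1.5-fold and 3-fold. The size rule was tested on simulated data as a check of the code, which gives no error rate for these arrays. Python 3.11.15, numpy 2.4.6, pandas 2.3.3, statsmodels 0.14.6 and matplotlib 3.10.9 were used. The number of arrays limits the precision.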

Additional observations from a re-analysis of the deposited data

Results flagged for a closer look

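The probe set annotated to both AHRR, the repressor of the receptor, and PDCD6, a calcium-binding protein, was used in no comparison. It had a log2 value of 7.82 in the GO array, 7.59 in the rGO array and 7.65 in the control array. Its GO signal was thus above the control by 0.17, and 23.7% of genes past the filter stood higher in that comparison. Another probe set naming PDCD6, shared with the pseudogene PDCD6P1, had 8.81 in the GO array, 8.80 in the rGO array and 8.86 in the control array. How much of the signal of the shared AHRR probe set comes from AHRR was not tested.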

How the results depend on the processing

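No paired analysis was possible because each group was 1 array. Of the 18 member differences (6 genes in 3 comparisons) 17 kept their sign under the 3 normalizations, and none moved by more than 0.038 on the log2 scale. The other 5 alternatives cannot change a difference. Averaging has only 1 probe set per member to use, and the filters and sizes set only which genes are counted. The sign that changed was that of CYP1A2 in GO minus control, which ran from -0.0051 to 0.021. CYP1A1 in rGO minus control ran from -0.54 to -0.52. The count of members past the size was 0 under all 8 alternatives. With the 60th percentile filter, which leaves 3 members without CYP1A1, the median difference of members past the filter after GO was 0.050 in place of -0.04. For the other targets of the receptor the median after GO was -0.37 over the 7 past the filter, against -0.09 over all 12. Over all genes GO against control gave 129 genes at 2-fold, 678 at 1.5-fold and 9 at 3-fold. For rGO against control these counts were 2, 17 and 0, and for GO against rGO 88, 555 and 8. For rGO minus control the count was 4 with no level filter and 1 with the 60th percentile filter. Listed pathway genes past the size numbered 2 in GO minus control and 2 in GO minus rGO, against 8 and 4 at 1.5-fold, 1 and 1 at 3-fold, and 1 and 1 with the 60th percentile filter. Another size or another number of genes tested gives these other counts by construction. Dim signal limits CYP1A2 and CYP1B1, and single arrays limit all values.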

Other observations

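A probe set shared by 9 genes of the UGT1A cluster, whose glucuronidating enzymes include targets of the receptor, had a log2 value of 5.94 in the GO array, 5.68 in the rGO array and 5.77 in the control array. CYP1B1-AS1, the antisense gene beside CYP1B1, had 4.42 in the GO array, 4.37 in the rGO array and 4.40 in the control array. Both lay below the level filter.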
